A study of Drosophila melanogaster with 6 samples.

Results

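The Notch pathway genes described here are 10 genes of Drosophila melanogaster: N, kuz, nct, Psn, numb, Su(dx), Su(H), mam, H and gro. Their sites were every entry of 2 deposited site lists whose gene name was one of these 10, which gave 132 of 29142 listed sites: 41 of 6225 C-to-T sites and 91 of 22917 truncation sites. The data are m6A individual-nucleotide crosslinking and immunoprecipitation (miCLIP) from S2R+ cells, a cultured fly line of haemocyte-like character grown untreated and with no genetic change in its labels. Fragmented mRNA was precipitated with an m6A antibody in 4 replicate immunoprecipitations (IPs), with 1 non-crosslinked IP and 1 library of fragmented mRNA input as controls. The lists hold values already combined over the IPs that share a site, so there is no spread between replicates to give, no test across samples was possible, and the controls are not analysed here.

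In miCLIP the antibody is crosslinked to RNA with ultraviolet light, and reverse transcriptase reading past the crosslink either writes a T where the RNA has a C or stops. The first kind of event gives the C-to-T list, and the second gives the truncation list, where each site has the base at which the caller placed the stop. N6-methyladenosine sits on A and is commonly followed by C, so a truncation at A with a converted C on its 3′ side can be the same modified position seen in both ways. Below, such a combination, with the truncation at A exactly 1 nt upstream of the C, is called a pair. Conversion is the percentage of unique sequenced tags over a position that carry the change, and peak height is the score the site caller gave to a truncation. Each conversion is a mean of percentages over IPs and aligners. It can therefore differ from the ratio of the mean tag counts printed beside it, from which its interval was computed.

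Notch is a cell-surface receptor that carries a signal between neighbouring cells and sets cell fates in many fly tissues, the blood lineage among them. On ligand binding the receptor is cut outside the membrane by the metalloprotease Kuzbanian (kuz) and then within it by gamma-secretase, whose subunits include Presenilin (Psn) and Nicastrin (nct). The freed intracellular part joins the DNA-binding protein Suppressor of Hairless, Su(H), and the co-activator Mastermind (mam) at target genes. In its absence Hairless (H) links Su(H) to the co-repressor Groucho (gro). Numb and the ubiquitin ligase Suppressor of deltex, Su(dx), restrain the receptor through its trafficking.

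Sites were listed for 9 of the 10 genes. Psn, the catalytic subunit of gamma-secretase (chromosome 3L, 20432468 to 20435156, plus strand, 5′ UTR of 315 nt over its isoforms), had none in either list. C-to-T sites were listed for 7 genes and truncation sites for 9. Over all 13968 nuclear protein-coding genes of the annotation, 9.46% had a C-to-T site, 28% a truncation site and 28% a site of either kind. The 10 genes were chosen with earlier results of these data known, so nothing is read from their higher share. Coverage outside listed sites is unknown, so a gene with no site cannot be told apart from one with too few tags to be listed.

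The number of sites fell off steeply between members. kuz had 39 and gro 33, which together made 72 of the 132 sites and 26 of the 41 C-to-T sites. They were followed by mam with 19, H with 14, nct with 10, N with 8, Su(dx) with 5, and Su(H) and numb with 2 each. By total sites kuz ranked 66th and gro 108th among the 3911 protein-coding genes with a site, while Su(H) and numb shared rank 2257. The counts were not adjusted for mRNA abundance, which was not measured here, and its part was not tested.

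**Figure D1:**
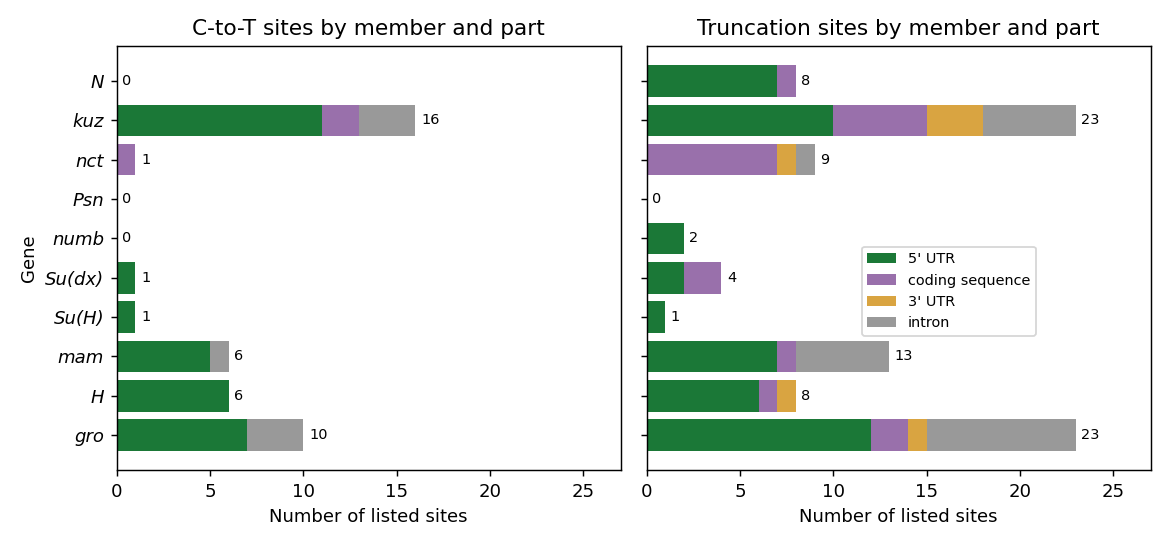
Number of listed C-to-T sites (left) and truncation sites (right) for each of the 10 genes, with bars divided by transcript part and the total printed at the end of each bar. kuz and gro lead both panels, N and numb have truncations only, nct alone has its sites mainly in coding sequence, and Psn has none.

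5′ UTRs held 31 of the 41 C-to-T sites (75.6%, 95% Wilson interval 60.7% to 86.2%), beside 59% over the whole C-to-T list. Coding sequence held 3 (7.32%, 2.52% to 19.4%; list share 25.6%), introns 7 and 3′ UTRs none, an upper Wilson bound of 8.57% for the last, beside 10.1% over the list. Of the 91 truncation sites 47 lay in 5′ UTRs (51.6%, 41.5% to 61.6%; list share 34.4%), 19 in coding sequence (20.9%, list share 39.7%), 6 in 3′ UTRs (6.59%, list share 11.9%) and 19 were intronic. These intervals cover counting error only and treat sites of 1 gene as independent, which they are not, and the differences from the lists were not tested. Related to length, the 10 genes had 3.99 C-to-T and 6.04 truncation sites per kilobase of 5′ UTR, against 0.0929 and 0.589 per kilobase of coding sequence. For the 9 members with a site these densities were 4.15 and 6.30 in 5′ UTRs and 0.0979 and 0.620 in coding sequence. Over all 3807 genes with an exonic site the same densities were 1.78 and 3.83 per kilobase of 5′ UTR and 0.190 and 1.09 per kilobase of coding sequence.

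The 5′ UTR densities of single members differed widely, from 28.3 sites per kilobase in kuz and 19.9 in gro through 17.2 in H, 8.77 in N, 7.36 in mam, 4.45 in Su(H) and 3.95 in Su(dx) to 1.45 in numb. In 8 of the 10 genes at least 1 site lay in the 5′ UTR. The exceptions were Psn and nct, whose annotated 5′ UTR is only 48 nt long. The share of all genes with a 5′ UTR site was not computed, so nothing is read from this count. Of the 78 5′ UTR sites 71 lay within 1500 nt of the gene's annotated start. In 46 of the 78 cases the position is 5′ UTR in some isoforms of the gene only.

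**Figure D2:**
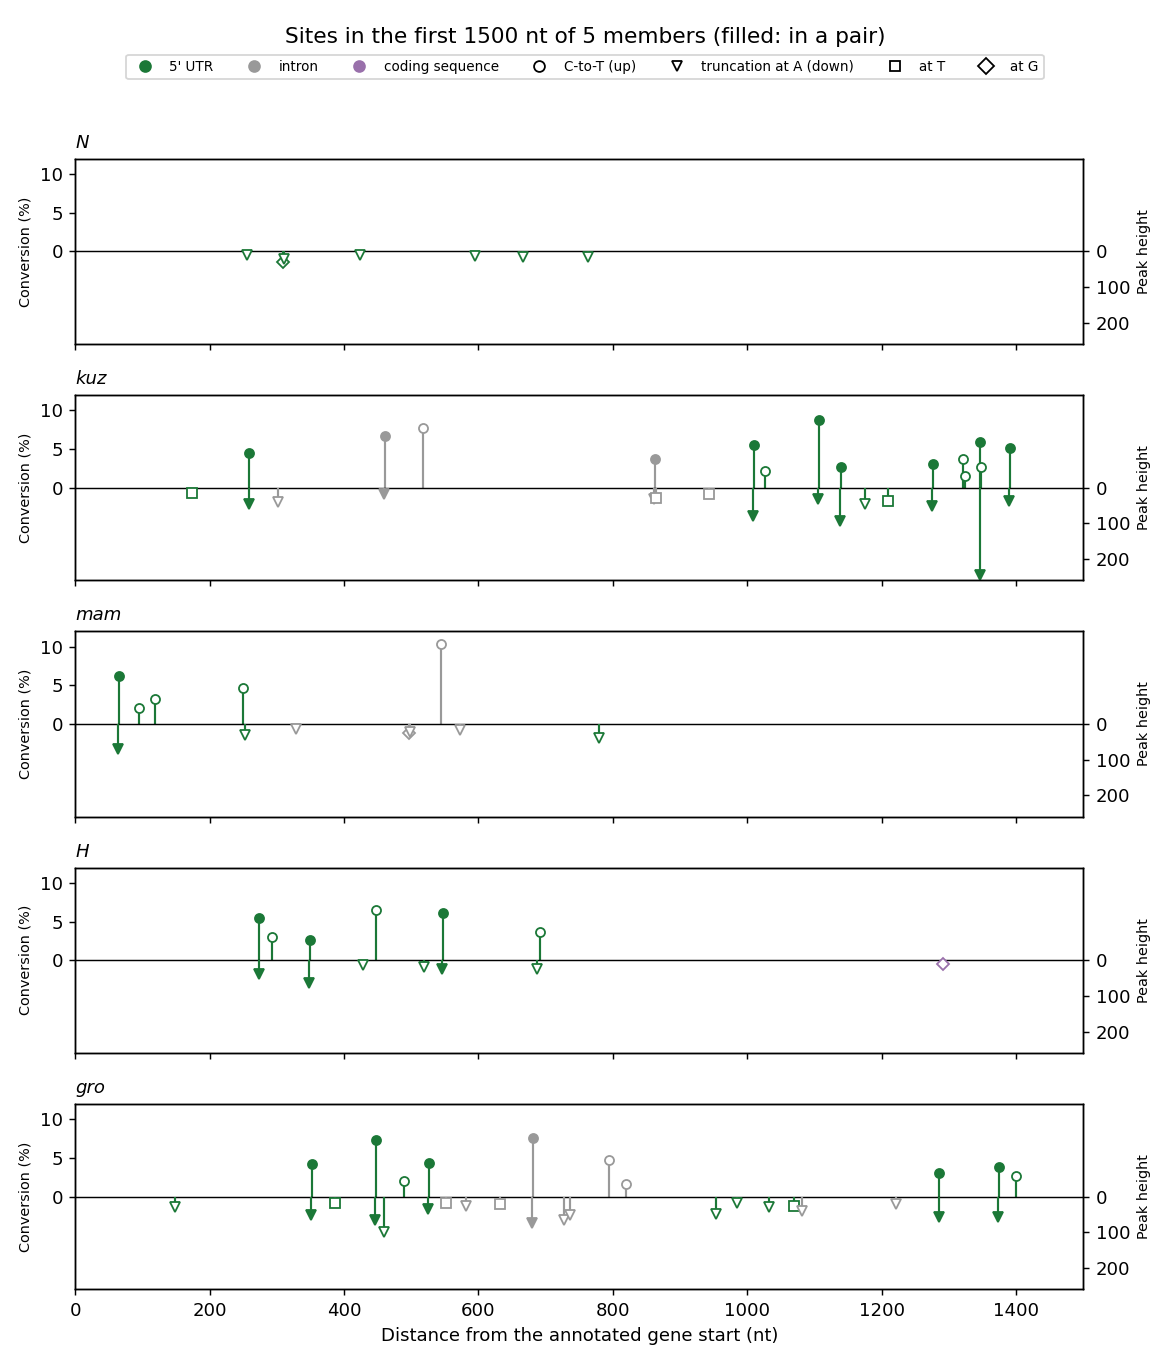
Sites in the first 1500 nt of N, kuz, mam, H and gro, by distance from the annotated gene start, with C-to-T sites drawn upward (conversion, %) and truncation sites downward (peak height) and filled symbols for members of a pair. In kuz and gro the pairs stand at several distances from the start. In N truncations with heights of 28.5 or less (list median 14.5) stand without any C-to-T site. The grey sites of kuz, mam and gro lie in introns before the start codon.

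A was the base at 65 of the 91 truncations (71.4%, 61.4% to 79.7%), beside 51.9% over the whole truncation list. T followed with 17 (18.7%, list share 32.5%), G with 6 (6.59%, list share 8.14%) and C with 3 (3.30%, list share 7.49%). In the members' 5′ UTRs 41 of 47 truncations were at A (87.2%, against 73.3% in all 5′ UTRs of the list), and in their coding sequence 7 of 19 (36.8%, against 37.4%). The coding share was thus close to that of the list, while the difference in 5′ UTRs was not tested. The base composition of these regions was not used here, so the shares are not relative to the A positions available.

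Of the 41 C-to-T sites 24 formed a pair (58.5%, 43.4% to 72.2%), beside 35.1% over the C-to-T list. All 24 truncations found at that offset were at A, as were 2182 of 2208 over the list. At the other offsets from 5 nt upstream to 5 nt downstream, including the converted position itself, 5 truncations were listed in total. Over the list the most frequent of these was 2 nt upstream, with 489 truncations around 6225 C-to-T sites. Pairs occurred in 6 of the 10 genes: 11 in kuz, 6 in gro, 3 in H, 2 in mam and 1 each in Su(H) and Su(dx). The share of all genes with a pair was not computed, so nothing is read from this number of genes. Within 5′ UTRs, where both lists are densest, 19 of 31 C-to-T sites of the members were paired (61.3%, 43.8% to 76.3%). In all 5′ UTRs of the list 49.1% were. Coding sequence, where 6.34% of the list's C-to-T sites were paired, held 3 of the members' 41 sites, 2 of them paired. In introns the order was the other way, with 3 of the members' 7 sites paired (42.9%), against 63.6% of 165 intronic sites in the list.

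Paired sites were converted at a median of 5.51% (2.58% to 9.59%) over a median of 198 tags, and the 17 other C-to-T sites at 3.29% (1.55% to 14.1%) over 325 tags. Over the whole list the medians were 4.79% for paired and 2.58% for other sites, with 192 and 352 tags, so the members followed the order of the list. All 4 IPs shared 14 of the 24 paired and 3 of the 17 other sites. Together these were 41.5% of the members' C-to-T sites, beside 34.6% over the list, for which a split by pairing was not made. Truncations at A in a pair had a median peak height of 41.9 (15.3 to 244), and those at A outside a pair 19.3 (5 to 99.3). In 5′ UTRs alone the medians were 52.1 for 19 paired and 20.7 for 22 unpaired truncations at A, and over the list 37 and 16. These are descriptions, since the sites of 1 gene share its coverage.

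**Figure D3:**
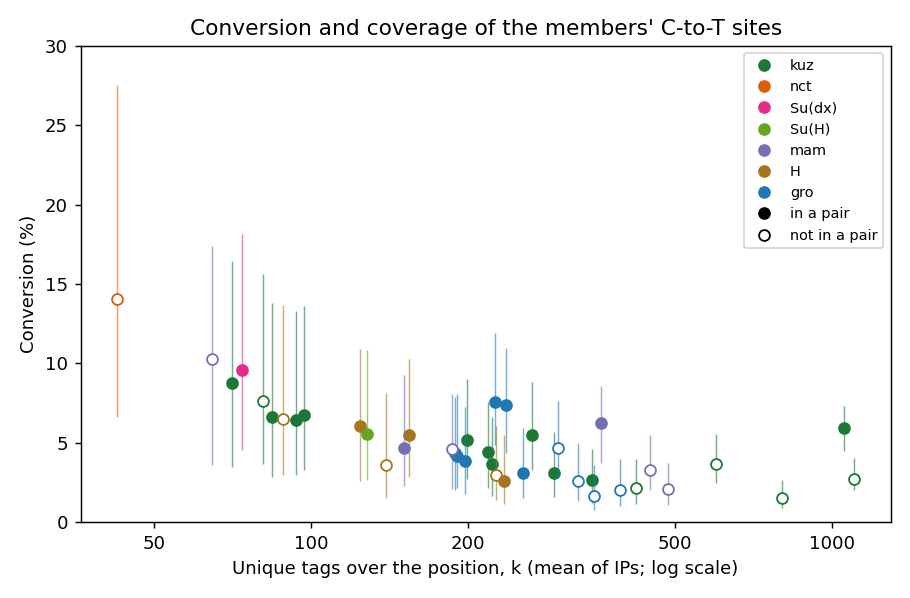
Conversion (%) against coverage in unique tags (log scale) for the 41 C-to-T sites, coloured by gene, with filled symbols for pairs and vertical lines for 95% Wilson intervals of counting error in an average IP. Sites of 97.1 tags or fewer lie at 6.42% or above, and the kuz site at 1053 tags stands at 5.93%, above the other sites of 600.1 tags or more.

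Conversion over all 41 sites had a median of 4.63%, against 3.43% over the list, and coverage a median of 222 tags, against 274. It ran from 1.55% at 804 tags in kuz to 14.1% at 42.5 tags in nct. The number of converted tags had a median of 7.75 and ran from 5 to 60.4. Thinly covered sites were those with the higher percentages, as the plot of conversion against coverage shows, and the part of the caller's limits in this was not tested.

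The receptor gene N (chromosome X, 3134870 to 3172221, plus strand, build dm6) had 8 truncations and no C-to-T site. Of these, 7 lay in the 5′ UTR within exon 1 of 9 and 1, at G, in coding sequence at 3164780 in exon 6. In the 5′ UTR the truncations at A stood at 3135125, 3135180, 3135294, 3135465, 3135537 and 3135633, with peak heights of 10, 20.8, 10.3, 12.7, 14.8 and 15.8. They spread over the 5′ UTR from 543 to 35 nt before the start codon. The null peak height that the caller gave beside them was 0.603 to 0.882, against 6.48 for the tallest truncation of kuz. The tallest entry of N, 28.5 at G at 3135179, was given by Novoalign alone, and its neighbour at A at 3135180 by STAR and BWA.

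kuz (chromosome 2L, 13550139 to 13639411, plus strand) had 16 C-to-T sites and 23 truncations. A dense block lay in exon 2 of 13 of the isoform kuz-RB, which is 5′ UTR in all 5 annotated isoforms, and its 10 C-to-T sites spanned 13551149 to 13551530. Its strongest site was the C-to-T site at 13551486, 117 nt before the start codon, where 60.4 of 1053 tags were converted (5.93%, Wilson interval 4.48% to 7.30% for an average IP) in all 4 IPs. The truncation at A directly upstream, at 13551485, reached a peak height of 244. These values ranked 17th among the 6225 C-to-T sites and 38th among the 22917 truncations. The next base, at 13551487, was itself a C-to-T site, with 31.9 of 1101 tags converted (2.73%, 2.06% to 4.06%), so that converted positions lay 1 nt and 2 nt downstream of the truncated A. The intervals of the 2 neighbouring positions did not overlap. They cover counting error only and treat the tags of both positions as separate, although neighbouring positions share tags. The difference was not tested.

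Other pairs of the kuz block had their C at 13551149 (5.51%), 13551246 (8.77%), 13551278 (2.67%), 13551415 (3.12%) and 13551530 (5.18%), with truncations of height 78.9, 31.2, 94.1, 52.1 and 36.3. The coverage of these C-to-T sites was 266, 70.5, 346, 292 and 199 tags. Height and conversion did not follow the same order among them. The tallest of the 5 truncations belonged to the site with the lowest conversion, which had the most tags. The lowest truncation belonged to the site with the highest conversion and the fewest tags. The block's strongest pair, with its C at 13551486, combined a height of 244 with 5.93% of 1053 tags. The part of coverage in these orders was not tested. Between these pairs lay C-to-T sites with no truncation beside them, at 13551165 (2.16%), 13551460 (3.67%) and 13551463 (1.55%), each over 421 to 804 tags. A further pair stood in exon 1 of the isoform kuz-RA, with its C at 13550398 (4.44%).

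Outside the 5′ UTR, kuz had the only coding pairs of the 10 genes, both in exon 4, with their C at 13609830 (6.42% of 93.5 tags) and 13609907 (6.64% of 84.3 tags). The second rests on a truncation at A given by STAR alone (height 15.3), next to a truncation at T 1 nt further upstream given by Novoalign and BWA (height 30.4). A truncation at T at 13610059 in exon 5 lies in a stretch where the annotation also places the microRNA gene mir-2489 on the same strand, and the 2 cannot be told apart. The 3 truncations of the 3′ UTR were all at A and low, with heights of 9 to 11.7.

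nct (annotated as Nct; chromosome 3R, 24851601 to 24854869, plus strand) differed from the other members in layout. Its 9 truncations comprised 7 in coding sequence, 1 in the 3′ UTR and 1 intronic, 2 nt before the next exon. T was the base at 4 of them, A at 3 and C at 2, and heights ran from 8 to 21.6, the highest at T at 24854765 in the 3′ UTR (exon 7 of 7). The intronic truncation, of height 9.5, was given by Novoalign alone and found in 2 IPs. The single C-to-T site, at 24852583 in the coding sequence of exon 3, had 6 of 42.5 tags converted (14.1%, 6.63% to 27.5%) in 2 IPs, was given by BWA alone and had no truncation within 3 nt.

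numb and Su(dx) had 2 and 5 sites. numb (chromosome 2L, 9437469 to 9464184, plus strand), an endocytic adaptor, had 2 truncations at A in the 5′ UTR in exon 1 of numb-RD. They stood at 9450190 (height 13.5, 2 IPs) and 9450305 (height 35.8, 4 IPs), and no C-to-T site was listed. Su(dx) (chromosome 2L, 2037714 to 2044372, plus strand), a ubiquitin ligase gene, had 1 pair in exon 1 of 7, at 2037787 and 2037788, 499 nt before the start codon. Its truncation had a height of 26.8, and 6.89 of 73.8 tags were converted (9.59%, 4.57% to 18.1%), in 4 IPs each. A second 5′ UTR truncation at A lay at 2037827 (20.5), and 2 coding ones, at T and A, were low (11.3 and 8).

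Su(H) (chromosome 2L, 15039488 to 15043334, plus strand), the DNA-binding factor of the pathway, had a single pair and nothing else. Its C-to-T site at 15039831, in the 5′ UTR of exon 1 of 4 and 106 nt before the start codon, had 7 of 128 tags converted (5.53%, 2.67% to 10.9%) in 2 IPs. The truncation at A at 15039830 was found in 4 IPs with a height of 24.2.

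mam (chromosome 2R, 13991203 to 14060356, plus strand), the co-activator gene, had 2 clusters of 5′ UTR sites, each in the 5′ UTR of a single isoform, at 64 to 779 nt and at 46858 to 47127 nt from the gene start. At the gene start, in exon 1 of 7 of mam-RA, the highest site was at 13991268, where 20.5 of 359.8 tags were converted (6.27%, 3.74% to 8.59%), paired with a truncation of height 69.2. Further C-to-T sites there, at 13991298 (2.06%), 13991321 (3.29%) and 13991452 (4.63%), had no truncation within 3 nt, although a truncation at A (30.8) lay 4 nt downstream of the last. In the downstream cluster, in exon 2 of 4 of mam-RC, a pair at 14038329 and 14038330 had a height of 34.3 and a conversion of 4.67%, 82 nt before the start codon. The one position whose part differed between the authors' label and the annotation was the truncation of mam at 13991982 (38.8), labelled 3′ UTR by the authors and placed in 5′ UTR exon 2 of mam-RA here.

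H (chromosome 3R, 20621938 to 20628915, plus strand), which encodes the adaptor to the co-repressors, had 6 C-to-T sites and 6 truncations in the 5′ UTR of exon 1, all 6 truncations at A. Its pairs had their C at 20622212 (5.51%), 20622287 (2.58%) and 20622485 (6.06%), with truncations of height 37.8, 64.4 and 25. The first had the most converted tags of the gene, 8.5 of 154 (2.87% to 10.3%). The tallest of the 3 truncations went with the lowest conversion and the highest coverage (234 tags, against 154 and 124). The part of coverage in this was not tested. The pair at 20622485 is the one pair of the members whose C-to-T site and truncation share no aligner. The site nearest the start codon, at 20622630, lay 5 nt before it in 2 isoforms and inside the coding sequence of the other 2 (3.60% of 139 tags, 1 aligner). Beyond the 5′ UTR, H had 1 truncation at G in coding sequence (9.94) and 1 at G in the 3′ UTR (11.9).

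gro (chromosome 3R, 26041736 to 26049911, plus strand), the co-repressor gene, had 10 isoforms in the annotation and 10 C-to-T sites. Its highest 5′ UTR site lay at 26042183 in exon 1 of 13 of gro-RA, with 16.5 of 237 tags converted (7.37%, 4.37% to 10.95%) in 4 IPs and a truncation at A of height 65.3 beside it. Other 5′ UTR pairs had their C at 26042088 (4.16%), 26042262 (4.35%), 26043022 (3.10%) and 26043111 (3.87%), the last 2 of them in sequence that is 5′ UTR in all 10 isoforms. The tallest truncation of the gene, 99.3 at A at 26042196, was found in 2 IPs and had no C-to-T site 1 nt downstream. Past the start codon gro had 3 low truncations, at A (7.17) and C (8) in coding sequence and at T (11.4) in the 3′ UTR.

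**Figure D4:**
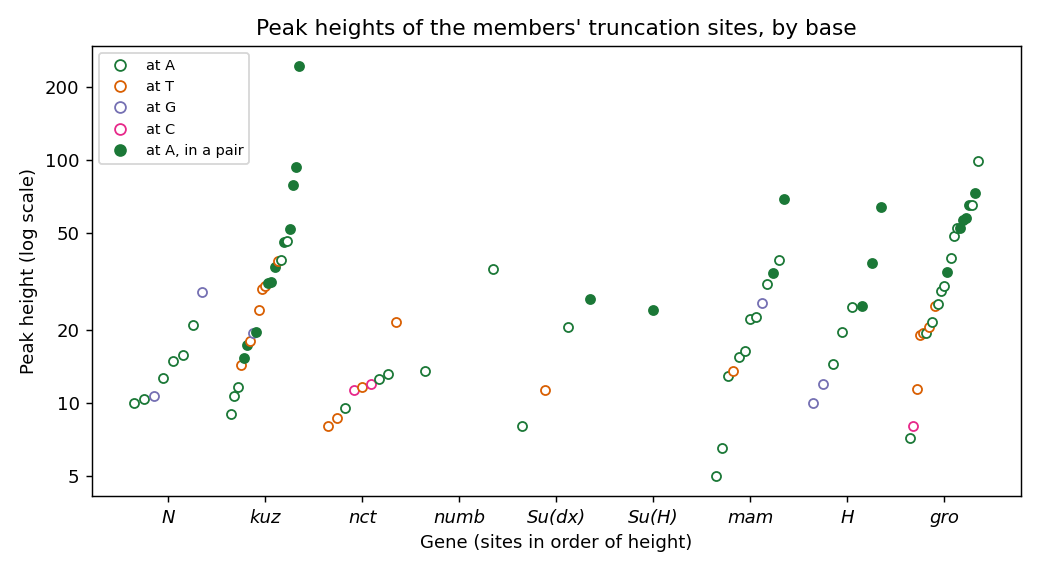
Peak height (log scale) of each of the 91 truncation sites, grouped by gene and sorted by height within it, with colours for the base and filled symbols for truncations at A in a pair. The tallest truncation is at A in kuz, gro, mam, H, Su(dx), numb and Su(H), at G in N and at T in nct, and N stays at or below 28.5.

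Intronic positions made up 7 of the 41 C-to-T sites (17.1%, 8.53% to 31.3%), beside 2.65% over the list, and 19 of the 91 truncations (20.9%, 13.8% to 30.3%), beside 7.92%. The differences were not tested. The 26 intronic positions came from 4 genes: gro (3 C-to-T sites and 8 truncations), kuz (3 and 5), mam (1 and 5) and nct (1 truncation). In 24 of the 26 cases the position lay in intron 1 of the isoform used, before the start codon and within 2000 nt of the gene start. RNA not yet spliced and exons that the annotation lacks cannot be told apart in the site lists, so intronic here means only outside every annotated exon of the gene. A was the base at 14 of the 19 intronic truncations (73.7%), against 51.1% of all intronic truncations in the list.

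The highest C-to-T site of gro by converted tags was one of these, at 26042417, where 17.3 of 226 tags were converted (7.60%, 4.86% to 11.9%) in 4 IPs. It was paired with a truncation of height 73.3. It lies 516 nt into intron 1 of gro-RJ, which is 1093 nt long, and no annotated isoform of gro has an exon there. In kuz the intron of 848 nt between exons 1 and 2 of kuz-RB held pairs with their C at 13550600 (6.75% of 97.1 tags) and 13551002 (3.67% of 222 tags), and a C-to-T site with no truncation at 13550657 (7.67%). In mam the intron of 485 nt in mam-RA held 1 C-to-T site, at 13991747 (10.3% of 64.4 tags). Coverage of the 7 intronic sites had a median of 222 tags, against 234 for the members' 31 sites in 5′ UTRs, whereas over the list the medians were 122.5 in introns and 238 in 5′ UTRs.

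**Figure D5:**
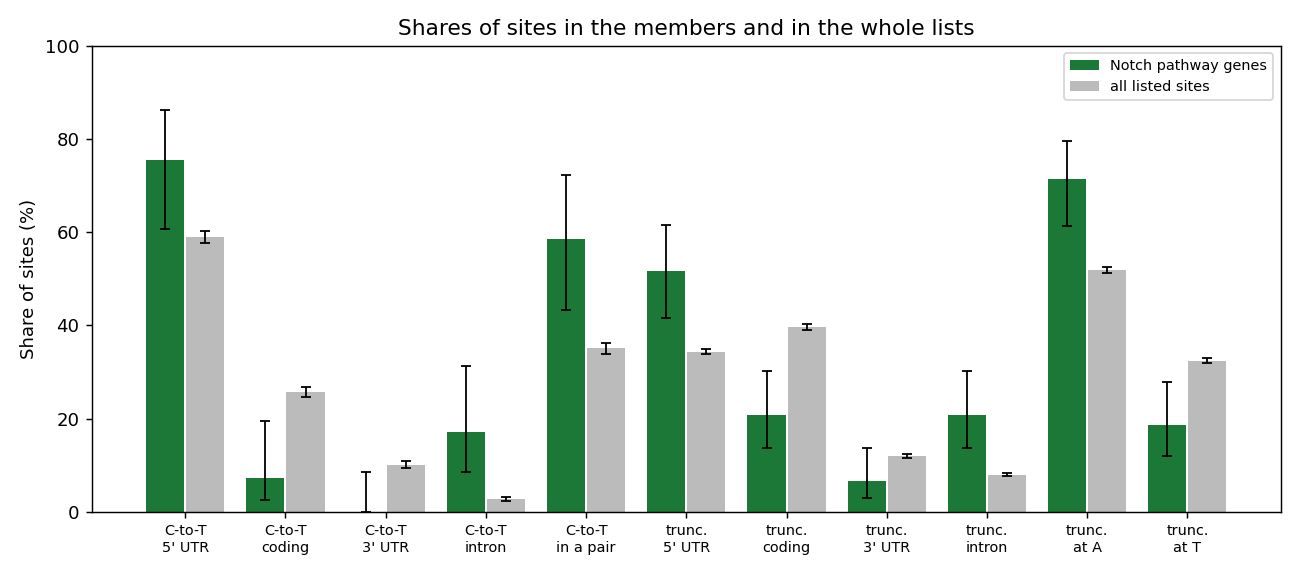
Share of sites (%) in the Notch pathway genes (green) and in all listed sites (grey), with 95% Wilson intervals that cover counting error only. The members stand above the lists for 5′ UTRs, introns, pairs (58.5%, against 35.1%) and truncations at A (71.4%, against 51.9%), and below them for coding sequence, 3′ UTRs and truncations at T (18.7%, against 32.5%).

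Truncations called at neighbouring bases were found 4 times in the members, in kuz, mam, nct and N. In 3 of the 4 cases no aligner gave both bases, and in kuz, mam and N the base 1 nt upstream of the A was T, G and G. Over the whole truncation list 57.7% of 452 such neighbours shared no aligner. The base assigned depended on the aligner in these 3 cases, and a pair depended on it in kuz only. Novoalign and BWA gave 39 each of the 41 C-to-T sites, and STAR gave 13 (31.7%, against 46.3% over the list). All 3 aligners gave 12 of them (29.3%, against 43.0%).

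The wider pathway was followed in a further 39 genes, of which 17 had 204 sites, 54 of them C-to-T sites. The share of all annotated genes with a site, 28%, is the background for these gene counts, and the wider list too was chosen with earlier results known. Of all 204 sites 131 lay in 5′ UTRs, a part that took 59% of all C-to-T sites and, among truncations, 34.4%. A further 36 lay in coding sequence, which held 25.6% of all listed C-to-T sites and 39.7% of all truncations. In 3′ UTRs lay 9 (list shares 10.1% and 11.9%) and in introns 28 (2.65% and 7.92%). The counts by part pool both kinds of site. Of the 54 C-to-T sites 31 were paired (35.1% over the list). By role, nuclear co-factors had sites in 5 of 6 genes, with 123 sites. nej, the CBP acetyltransferase gene, had 40 (17 C-to-T, highest conversion 13.7%), the co-repressor gene Smr 35 and the Mediator kinase module gene skd 29, while CtBP, the co-repressor that Hairless also binds, had 17. Bx42 had 2 and kto none.

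Of the proteases and gamma-secretase subunits, 3 of 6 had sites. The furin genes Fur1 and Fur2 had 24 and 10, and pen-2, a gamma-secretase subunit gene, had 2. aph-1, Kul and Tace had none. Receptor ubiquitination and sorting genes had sites in 5 of 6 cases, with 21 in the ubiquitin ligase gene Nedd4 and 9 in l(2)gl, 3 each in dx, shrb and AP-2alpha and none in spdo. Of the ligands and their ligases, the epsin gene lqf had 3 sites and neur 1, while the ligand genes Dl and Ser and the ligase gene mib1 had none. The glycosyltransferase genes fng and O-fut1 had 1 truncation each and rumi had none. None of the 13 target genes, 11 of them in the Enhancer of split complex together with Hey and dpn, had a site in either list. The expression of these genes in S2R+ cells was not measured here, so absence of a site cannot be told apart from weak expression.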

How the data were processed

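Per the submitters' processing notes, the data refer to build dm6, and the tools named were STAR 2.4.2a, Novoalign, BWA, Bowtie 1.1.2 and cutadapt 1.8, with no roles. According to the column legend deposited with the lists, the authors called sites with the CTK toolkit for 3 aligners and listed those shared by 2, 3 or 4 IPs. The deposited values are tag counts k and m and their percent (means over the sharing IPs), and the peak height, a score for which the legend gives no way of combining IPs. Here each value was averaged over the aligners that gave the site, and the largest IP number among them was taken. The printed conversion is the averaged percent, while the mean counts m and k of 1 average IP gave the Wilson 95% intervals. PCR duplicates that escaped collapsing are not covered by them.

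Sites were placed on isoforms of Ensembl release 115 (dm6 coordinates, 1-based) as 5′ UTR, then coding sequence, then 3′ UTR, then intron. All 132 member sites lay in their own gene on its strand. Positions within transcripts refer to the longest isoform giving that part. No genome sequence was used here, so no sequence is printed and the planned description of flanking bases was not made. The 10 members, the wider list and all choices were made with earlier results of these data known. All members are named, with the C-to-T site with the most converted tags, the tallest truncation and every pair of each. The functions were tested on simulated data, in Python 3.11.15 with SciPy 1.17.1. The sources used here leave out whether the controls were used to filter sites. Nothing in the labels says whether the IPs came from separate cultures.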

Additional observations from a re-analysis of the deposited data

How the results depend on the processing

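No paired analysis was possible because the lists hold values combined over IPs, which also prevents leaving out a replicate. Of 56 alternatives to 7 values, 44 stayed within the 95% interval of the value (for a count of genes, within 1.5 times) and 12 did not. The 5′ UTR share of C-to-T sites, 75.6%, was 88.2% among 17 sites in 4 IPs and 58.3% among 12 given by all 3 aligners. It was 88.9% among 18 at or above the median of converted tags and 91.2% among 34 outside introns. The last setting was chosen after seeing the data. It removes only sites outside 5′ UTRs, so for either kind of site it could only raise the share. Its values are counted among the 12. The 5′ UTR share of truncations, 51.6%, was 75% among 36 in 4 IPs and 62.9% among 62 given by all 3 aligners. It was 62.9% among 62 at or above the median height and 65.3% among 72 outside introns. Among exonic sites of the whole lists, 62.3% of C-to-T sites and 40.0% of truncations lay in 5′ UTRs. List shares under the other filters were not computed, so the filtered values have no list value beside them. The share at A was 80.6% in 4 IPs. The share of C-to-T sites in a pair was 75% with all 3 aligners, over 12 sites. C-to-T sites were left in 4 genes with all 3 aligners and in 4 above the median of converted tags. Each of these settings keeps fewer sites, and the cause was not tested. Without kuz the shares stayed at 80% and 54.4% in 5′ UTRs, and 52% for pairs.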
